A study of Mus musculus with 12 samples.

Results

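The genes described here encode 8 receptors that tune T cell activation: Pdcd1 (PD-1), Cd28, Ctla4, Icos, Btla, Tigit, Lag3 and Havcr2 (TIM-3). Members were the probe sets that the platform annotation names with exactly 1 of these symbols, taking the brightest over the 12 arrays where a gene had several, and each of the 8 genes had exactly 1. They are 8 of the 22180 genes with a probe set of their own, and 7 of them were among the 16667 genes tested. Levels are log2 values from Affymetrix whole-transcript arrays, 1 array per sample, and because probe sets differ in affinity a level is compared between samples and never between genes. A difference of 1 on this scale is a 2-fold change in signal.

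The series, which concerns invariant natural killer T (iNKT) cells of mice, holds 3 arrays of BALB/c iNKT17 cells, 3 of BALB/c ROR- cells, 2 of B6 iNKT17 cells, 2 of B6 gamma-delta 17 cells and 2 of B6 ROR- cells. The labels give the strain (BALBC or B6) and the cell phenotype, list no treatment, and do not give age, sex, organ, sort gates or whether replicates came from separate animals. The protocol speaks of RNA from frozen tissue while the labels name cells, and what the ROR- cells are beyond that name is not stated. A p-value here therefore reflects only how far these arrays differ among themselves, a spread that could be technical. The number of arrays, 2 or 3 per group, limits the precision of each value.

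CD28 and ICOS are stimulatory receptors of the CD28 family, and CTLA-4, PD-1 and BTLA are its inhibitory members. CD28 and CTLA-4 compete for CD80 and CD86, ICOS binds ICOS ligand, PD-1 binds PD-L1 and PD-L2, and BTLA binds HVEM, a tumour necrosis factor receptor family member encoded by Tnfrsf14. TIGIT, which binds the poliovirus receptor, LAG-3, which binds MHC class II, and TIM-3 are inhibitory receptors of other immunoglobulin families that are commonly studied beside them. PD-1, ICOS and CTLA-4 are known to be induced when T cells are activated, while CD28 is carried by most resting T cells. Interleukin 17-producing iNKT cells and gamma-delta T cells leave the thymus already differentiated, and ICOS is a known feature of iNKT cells.

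Cd28, Ctla4 and Icos lie next to each other on chromosome 1, with 0 protein-coding genes between neighbours in the RefSeq annotation. Pdcd1 is on the same chromosome, Btla and Tigit are on chromosome 16, Lag3 is on chromosome 6 and Havcr2 is on chromosome 11. The 250 bases upstream of the gene start, from RefSeq promoter entries of build GRCm38.p6 held for 5 of the 8 genes, are printed for the 3 with such an entry that changed between cell types, so that the sequences of a gene that rose and of genes that fell can be set beside each other. The sequences read 5′ to 3′ on the gene's strand. Capitals mark matches, on either strand, to AGGTCA, a half-site bound by nuclear receptors, or to GGAAA, the core bound by NFAT factors. TGANTCA, bound by AP-1, was searched on both strands too.
Pdcd1 upstream (GRCm38.p6, chr1:94052554-94052803, minus strand): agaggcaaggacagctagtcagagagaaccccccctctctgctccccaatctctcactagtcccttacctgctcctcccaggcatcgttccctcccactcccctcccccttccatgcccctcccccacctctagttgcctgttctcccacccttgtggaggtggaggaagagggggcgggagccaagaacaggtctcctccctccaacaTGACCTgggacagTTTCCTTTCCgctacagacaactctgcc
Btla upstream (GRCm38.p6, chr16:45224087-45224336, plus strand): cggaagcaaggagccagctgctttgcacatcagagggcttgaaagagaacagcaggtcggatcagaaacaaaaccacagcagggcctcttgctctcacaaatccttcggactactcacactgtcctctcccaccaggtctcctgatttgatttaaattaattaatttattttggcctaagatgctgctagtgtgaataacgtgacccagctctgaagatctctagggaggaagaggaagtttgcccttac
Tigit upstream (GRCm38.p6, chr16:43664185-43664434, minus strand): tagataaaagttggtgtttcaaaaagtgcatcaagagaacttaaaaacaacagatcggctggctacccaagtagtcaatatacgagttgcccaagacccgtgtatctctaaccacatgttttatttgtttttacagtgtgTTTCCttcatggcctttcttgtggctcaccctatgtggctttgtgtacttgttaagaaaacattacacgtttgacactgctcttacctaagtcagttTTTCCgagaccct

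The Pdcd1 sequence held 1 nuclear receptor half-site, whose first base lay 41 bases before the gene start, and 2 NFAT cores side by side at 28 and 23 bases. The Tigit sequence held 2 NFAT cores at 110 and 13 bases, and the Btla sequence held 0 matches to the 3 motifs. Among the entries not printed, that of Havcr2, which was below the dim level throughout, held 1 half-site at 84 bases and 1 AP-1 site at 200. The Ctla4 entry, a gene called in no comparison, held 1 NFAT core at 144 bases. Among 32817 promoters of the same length, 14% held that half-site, 55.6% the NFAT core and 6.75% the AP-1 site. No match says only that those letters are absent from these windows, and a match is a description of sequence.

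The labels were checked against marker genes first. Cd3e, a T cell receptor signalling chain, read between 11.09 and 11.75 on the 12 arrays. Of 11 tested type 17 genes, 9 were higher in iNKT17 than in ROR- cells of BALB/c, where 4.06% of all genes were (limma, Benjamini-Hochberg adjusted p under 0.05). In B6 7 were higher in iNKT17 cells, where 2.83% of all genes were, and 9 in gamma-delta 17 cells, where 2.61% were. In each comparison 0 were lower. Zbtb16, which encodes the iNKT factor PLZF, averaged 8.99 in BALB/c iNKT17 cells, beside 9.10 in BALB/c ROR- cells, and in B6 it averaged 8.01 in iNKT17 and 7.64 in gamma-delta 17 cells, against 8.63 in ROR- cells. Ms4a1, a defining B cell gene, had group means between 2.70 and 2.94, below the dim level of 3.45, the 30th percentile of named probe sets, which is no measured background. Cd79b, a B cell receptor chain of the same list, went the other way and averaged 6.35 in BALB/c iNKT17 cells, beside 4.50 in BALB/c ROR- cells (limma adjusted p = 4.90e-04). In B6 Cd79b averaged 6.63 in iNKT17 and 7.86 in gamma-delta 17 cells, against 4.95 in ROR- cells (limma adjusted p = 0.00443 and 8.49e-05), and the part of B cell markers in the receptor differences was not tested.

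Samples stood apart in 2 groups. In BALB/c ROR- replicate 2, Il23r, the interleukin 23 receptor, read 7.0, against 3.05 and 3.37 in replicates 1 and 3. In gamma-delta 17 replicate 1, Cd8b1, a CD8 chain of thymocytes and cytotoxic T cells, read 8.24, against 4.30 in replicate 2. There the 8 thymocyte markers named in the annotation summed to 44.0, against 30.6 in replicate 2 and 32.0 to 33.8 on the other 10 arrays. Rag2 and Arpp21 of that list read 2.94 and 3.21 on it, below the dim level. Its 11 myeloid markers summed to 53.8, against 49.0 in replicate 2 and 47.6 to 50.7 on the other 10 arrays.

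PD-1 was the receptor gene that was higher in type 17 cells. Pdcd1 read 7.54, 7.78 and 7.59 in BALB/c iNKT17 cells, while the BALB/c ROR- arrays read 5.19, 4.74 and 5.08. In B6 it read 7.79 and 7.72 in iNKT17 cells and 7.35 and 7.65 in gamma-delta 17 cells, against 5.22 and 5.49 in ROR- cells. Each type 17 array lay above each ROR- array, so the groups did not overlap in either strain. The BALB/c difference was 2.63 ± 0.15 (SE; n = 3 against 3), or 6.20-fold, with an adjusted p = 1.40e-06 in limma. In B6 Pdcd1 rose by 2.40 ± 0.18 in iNKT17 cells (5.29-fold, adjusted p = 1.14e-05) and by 2.15 ± 0.18 in gamma-delta 17 cells (4.44-fold, adjusted p = 2.47e-05; limma, n = 2 against 2 each). In bulk samples such as these, fewer cells that carry a transcript and less transcript per cell cannot be told apart.

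The 3 type 17 groups were close to one another for Pdcd1. The level difference between iNKT17 cells of BALB/c and of B6 was -0.12 ± 0.16 (95% interval -0.47 to 0.24; limma adjusted p = 0.843). Between iNKT17 and gamma-delta 17 cells of B6 it was 0.25 ± 0.18 (95% interval -0.14 to 0.65; limma adjusted p = 0.732). From highest to lowest the means ran B6 iNKT17 7.76, BALB/c iNKT17 7.64, B6 gamma-delta 17 7.5, B6 ROR- 5.35 and BALB/c ROR- 5.01, and of the neighbours in that order those that differed beyond their spread were gamma-delta 17 and B6 ROR- cells. BALB/c ROR- replicate 2, whose Il23r was high, had the lowest Pdcd1 level of its group. Without it the BALB/c difference was 2.50, and without gamma-delta 17 replicate 1 the gamma-delta 17 difference was 2.30. Without the same arrays the Btla differences were -1.54 and -3.08, the Tigit differences 0.10 and -1.67, the Icos differences 0.18 and -0.52, and the Lag3 differences -0.07 and -0.21, each on the same side of the threshold as with all arrays.

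**Figure D1:**
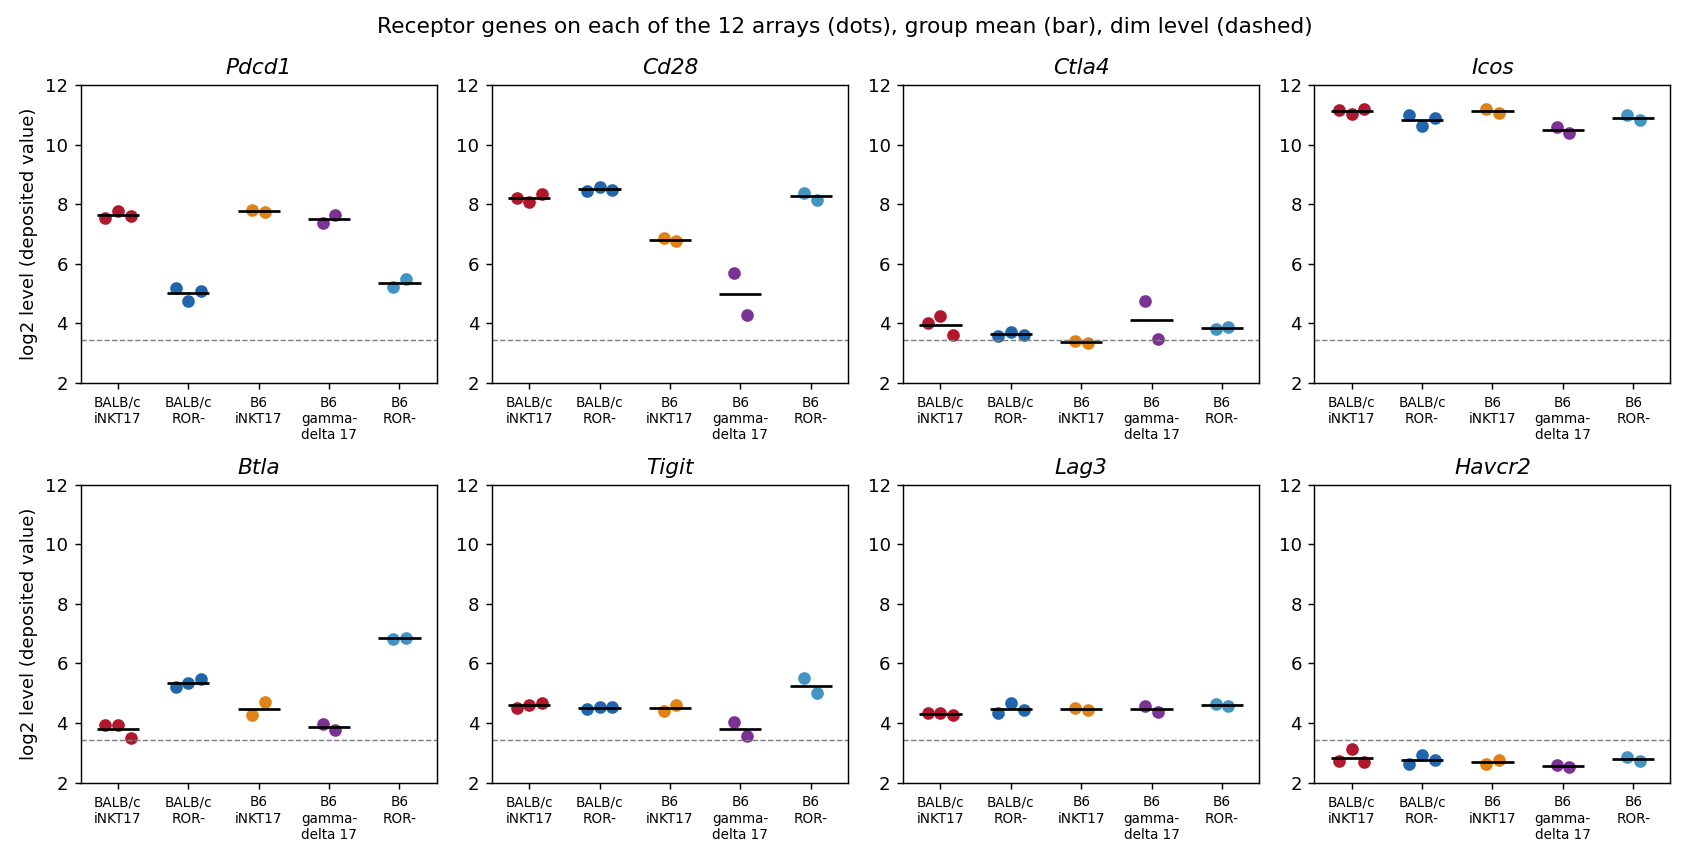
Log2 levels (y axis) of the 8 receptor genes on each of the 12 arrays (dots), by group along the x axis, with the group mean as a bar and the dim level of 3.45 dashed. Pdcd1 sat between 7.35 and 7.79 in the 3 type 17 groups and between 4.74 and 5.49 in ROR- cells, Btla ran the other way, and Havcr2 stayed under the dim level on all 12 arrays.

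BTLA went in the opposite direction. Btla read 3.95, 3.94 and 3.52 in BALB/c iNKT17 cells, while the BALB/c ROR- arrays read 5.21, 5.35 and 5.47. In B6 it read 4.28 and 4.70 in iNKT17 cells and 3.96 and 3.77 in gamma-delta 17 cells, against 6.83 and 6.87 in ROR- cells. The type 17 arrays lay below the ROR- arrays in both strains with no overlap. Btla fell by 1.54 ± 0.15 on the log2 scale in BALB/c (2.92-fold lower, adjusted p = 6.20e-05), by 2.36 ± 0.19 in B6 iNKT17 cells (5.15-fold lower, adjusted p = 1.62e-05) and by 2.99 ± 0.19 in gamma-delta 17 cells (7.93-fold lower, adjusted p = 4.88e-06; limma, n = 3 against 3 and 2 against 2 in B6).

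Btla also separated the ROR- cells of the strains. Its ROR- level was lower in BALB/c than in B6 by 1.51 ± 0.17 (2.84-fold lower, limma adjusted p = 0.00101), with no overlap. The means ran from 6.85 in B6 ROR- cells through 5.34 in BALB/c ROR-, 4.49 in B6 iNKT17 and 3.86 in gamma-delta 17 cells to 3.80 in BALB/c iNKT17 cells. The top 3 of these differed from their neighbours, with a difference of 0.86 ± 0.17 between BALB/c ROR- and B6 iNKT17 cells (limma adjusted p = 0.00589), whereas the difference between B6 iNKT17 and gamma-delta 17 cells was 0.62 ± 0.19 (95% interval 0.22 to 1.03; adjusted p = 0.352). In iNKT17 cells the BALB/c minus B6 level difference was -0.69 ± 0.17, with an adjusted p of 0.0846 in limma. For Btla the difference between strains of iNKT17 minus ROR- was 0.82 ± 0.24 (unadjusted p = 0.00538) and did not pass (limma adjusted p = 0.640). The Btla means of 3.86 and 3.80 lay near the dim level of 3.45, which limits the fold values and the order of those groups.

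CD28 was lower in the type 17 cells of B6. Cd28 read 6.86 and 6.76 in B6 iNKT17 cells and 5.68 and 4.26 in gamma-delta 17 cells, against 8.38 and 8.15 in B6 ROR- cells. In BALB/c it read 8.22, 8.07 and 8.33 in iNKT17 cells, against 8.44, 8.58 and 8.47 in ROR- cells. The arrays of the groups did not overlap in either strain, but the gap was narrow in BALB/c. The level fell by 1.45 ± 0.33 in B6 iNKT17 cells (2.74-fold lower, limma adjusted p = 0.0201) and by 3.29 ± 0.33 in gamma-delta 17 cells (9.79-fold lower, limma adjusted p = 8.34e-05). In BALB/c the difference was -0.29 ± 0.27 (95% interval -0.87 to 0.29) and did not pass (limma adjusted p = 0.652).

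The Cd28 level of iNKT17 cells was higher in BALB/c than in B6 by 1.40 ± 0.30 (2.63-fold, limma adjusted p = 0.0428). This call did not hold with arrays centred on their medians or quantile normalized (limma adjusted p = 0.0517 and 0.0592). In ROR- cells the BALB/c minus B6 difference of Cd28 was 0.23 ± 0.30 (95% interval -0.42 to 0.88; adjusted p = 0.801). The test of whether the iNKT17 minus ROR- difference itself differed between strains gave 1.17 ± 0.42 (unadjusted p = 0.0175) and did not pass after adjustment (limma adjusted p = 0.988). The ordered means were 8.50 in BALB/c ROR-, 8.26 in B6 ROR-, 8.21 in BALB/c iNKT17, 6.81 in B6 iNKT17 and 4.97 in gamma-delta 17 cells. Among neighbours only BALB/c and B6 iNKT17 cells differed past the threshold, and the step of 1.84 ± 0.33 between B6 iNKT17 and gamma-delta 17 cells had a limma adjusted p of 0.0591.

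The spread of Cd28 came mostly from 1 group, since the SD was 1.0 in gamma-delta 17 cells and between 0.07 and 0.16 in the other 4. The fit shares its spread over all groups, so this also widened the Cd28 SE of comparisons without gamma-delta 17 cells. Gamma-delta 17 replicate 1, where thymocyte markers were high, had the higher Cd28 level of the pair. Without it Cd28 was lower in gamma-delta 17 than in ROR- cells with a difference of -4.0, and higher in iNKT17 than in gamma-delta 17 cells by 2.55 (limma adjusted p = 1.07e-06 and 8.44e-05). Without replicate 2 these differences were -2.58 and 1.13 (limma adjusted p = 3.54e-05 and 0.0219). The part of the thymocyte markers in the Cd28 level was not tested. The B6 iNKT17 call was lost without either B6 iNKT17 or either B6 ROR- array, with values between -1.57 and -1.34 and limma adjusted p between 0.0693 and 0.162, while the limma adjusted p of the BALB/c minus B6 difference in iNKT17 cells was 3.59e-04 without either gamma-delta 17 array and between 0.0598 and 0.380 without any of 9 others, which were the 3 BALB/c ROR- arrays, BALB/c iNKT17 replicates 1 and 3, and the 4 arrays of B6 iNKT17 and B6 ROR- cells.

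CTLA-4 transcript was dim. Ctla4 read 4.02, 4.25 and 3.61 in BALB/c iNKT17 cells, while the BALB/c ROR- arrays read 3.57, 3.72 and 3.60. In B6 it read 3.40 and 3.35 in iNKT17 cells, below the dim level, and 4.75 and 3.46 in gamma-delta 17 cells, against 3.79 and 3.87 in ROR- cells. The BALB/c groups overlapped, and the 2 gamma-delta 17 arrays lay on either side of the ROR- arrays. No comparison passed, with a difference of 0.33 ± 0.26 in BALB/c (95% interval -0.25 to 0.90; limma adjusted p = 0.599) and of -0.45 ± 0.32 between iNKT17 and ROR- cells of B6 (95% interval -1.16 to 0.25; limma adjusted p = 0.593).

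Gamma-delta 17 replicate 1 again decided the sign for Ctla4. Over both arrays the gamma-delta 17 minus ROR- level difference was 0.27 ± 0.32 (limma adjusted p = 0.736), without replicate 1 it was -0.37 and without replicate 2 it was 0.91, neither past the threshold. The iNKT17 minus gamma-delta 17 difference was -0.73 ± 0.32 and passed without replicate 2 (-1.37, limma adjusted p = 0.0380). Foxp3, the regulatory T cell factor whose cells carry much CTLA-4, read 5.58 on that array, against 4.67 in replicate 2 and 4.91 to 5.28 on the other 10 arrays. Of 7 tested regulatory T cell markers 0 passed in each of the 8 comparisons, where between 0.084% and 12.3% of all genes were called. At such shares few or none of 7 genes would be called. The part of these markers in the Ctla4 level was not tested.

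ICOS varied little, its level spanning 0.821 over the 12 arrays. Icos read 11.17, 11.02 and 11.21 in BALB/c iNKT17 cells, while the BALB/c ROR- arrays read 11.00, 10.62 and 10.90. In B6 it read 11.20 and 11.05 in iNKT17 cells and 10.59 and 10.39 in gamma-delta 17 cells, against 10.99 and 10.81 in ROR- cells. The iNKT17 arrays lay above the ROR- arrays in both strains and the gamma-delta 17 arrays below them, with small gaps. The iNKT17 minus ROR- level difference was 0.26 ± 0.10 as the mean of both strains (95% interval 0.03 to 0.48; limma adjusted p = 0.142), and the gamma-delta 17 minus ROR- difference was -0.41 ± 0.16 (95% interval -0.76 to -0.07; limma adjusted p = 0.179). Between iNKT17 and gamma-delta 17 cells of B6 Icos differed by 0.64 ± 0.16 (95% interval 0.29 to 0.98) with an unadjusted p of 0.00176 and a limma adjusted p of 0.205. None of the neighbours in the order of the 5 Icos means differed past the threshold.

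TIGIT was lower in type 17 cells of B6. Tigit read 4.39 and 4.59 in B6 iNKT17 cells and 4.02 and 3.58 in gamma-delta 17 cells, against 5.51 and 5.0 in B6 ROR- cells. In BALB/c it read 4.51, 4.62 and 4.67 in iNKT17 cells, against 4.47, 4.53 and 4.53 in ROR- cells. The B6 groups did not overlap and the BALB/c groups did. Tigit fell by 1.45 ± 0.19 in gamma-delta 17 cells (2.73-fold lower, limma adjusted p = 5.90e-04) and by 0.76 ± 0.19 in B6 iNKT17 cells (1.69-fold lower, limma adjusted p = 0.0339), against a BALB/c difference of 0.09 ± 0.15 (95% interval -0.25 to 0.42; limma adjusted p = 0.834).

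No strain difference passed for Tigit, whose BALB/c minus B6 level difference in ROR- cells was -0.74 ± 0.17 with a limma adjusted p of 0.0698. The test of a difference between strains in iNKT17 minus ROR- gave 0.85 ± 0.24 (unadjusted p = 0.00467, limma adjusted p = 0.627). In the order of the means, B6 ROR- cells at 5.25 exceeded BALB/c iNKT17 cells at 4.60 (difference 0.65 ± 0.17, limma adjusted p = 0.0406), followed by BALB/c ROR- at 4.51, B6 iNKT17 at 4.49 and gamma-delta 17 cells at 3.80, with no other neighbours past the threshold. The B6 iNKT17 call was lost without B6 ROR- replicate 1 (-0.50, limma adjusted p = 0.330), B6 iNKT17 replicate 1 (-0.66, 0.208) or replicate 2 (-0.86, 0.0921), or BALB/c iNKT17 replicate 3 (-0.76, 0.0517), which enters only through the shared spread.

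LAG-3 varied least of the 7 tested receptor genes, its level spanning 0.38 over the 12 arrays, and passed in no comparison. Lag3 read 4.33, 4.33 and 4.28 in BALB/c iNKT17 cells, while the BALB/c ROR- arrays read 4.33, 4.66 and 4.44. In B6 it read 4.51 and 4.42 in iNKT17 cells and 4.58 and 4.39 in gamma-delta 17 cells, against 4.63 and 4.58 in ROR- cells. The BALB/c groups overlapped, and the B6 iNKT17 arrays lay just below the B6 ROR- arrays. The iNKT17 minus ROR- level difference was -0.15 ± 0.09 as the mean of both strains (95% interval -0.34 to 0.05; limma adjusted p = 0.365). No neighbours in the order of its means differed past the threshold.

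TIM-3 transcript was below the dim level throughout. Havcr2 read between 2.69 and 3.12 in BALB/c iNKT17 cells, with 2.63 to 2.94 in BALB/c ROR- cells. In B6 it read 2.64 and 2.76 in iNKT17 cells and 2.60 and 2.54 in gamma-delta 17 cells, against 2.88 and 2.74 in ROR- cells. It did not pass the filter on dim genes and was not tested. With no filter its limma adjusted p lay between 0.558 and 0.999 over the 8 comparisons.

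**Figure D2:**
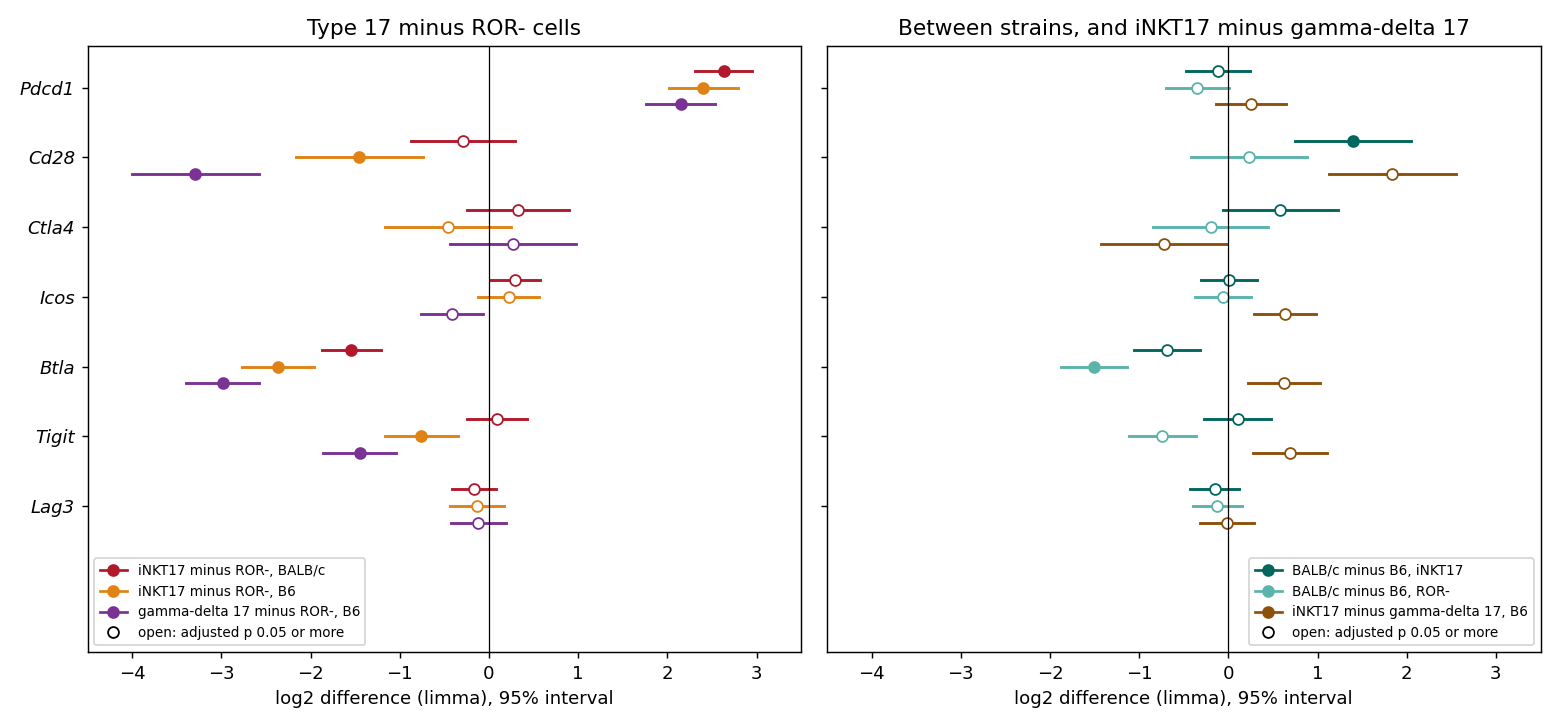
Log2 differences (x axis, limma estimate with 95% interval) of the 7 tested receptor genes (y axis), with iNKT17 or gamma-delta 17 minus ROR- cells on the left and BALB/c minus B6 and iNKT17 minus gamma-delta 17 cells on the right. Filled points passed an adjusted p of 0.05: Pdcd1 was higher in the 3 comparisons on the left and Btla lower in them, and on the right only Cd28 in iNKT17 cells (1.40) and Btla in ROR- cells (-1.51) passed.

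Counted over the 7 tested receptor genes, iNKT17 minus ROR- called 2 in BALB/c, where 6.97% of all genes tested were called, 1 of them higher (4.06% of all genes) and 1 lower (2.91%). In B6 it called 4, where 5.99% were called, 1 higher (2.83%) and 3 lower (3.16%). As the mean of both strains it called 3, where 12.3% were called, 1 higher (6.49%) and 2 lower (5.81%). Gamma-delta 17 minus ROR- called 4, where 6.02% were called, 1 higher (2.61%) and 3 lower (3.41%). The called genes were Pdcd1 and Btla in each, with Cd28 in all but BALB/c alone and Tigit in both B6 comparisons. The iNKT17 and gamma-delta 17 comparisons of B6 share the ROR- arrays, so their matching signs are not separate observations.

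Fewer calls came from the remaining comparisons. BALB/c minus B6 called 1 receptor gene in iNKT17 cells, where 1.48% of genes were called, and that was Cd28, which was higher (0.672% of all genes). In ROR- cells it called 1, where 1.22% were called, and that was Btla, which was lower (0.84%). The iNKT17 minus gamma-delta 17 comparison called 0 by limma, where 0.168% were called. There 5 of the 7 had an unadjusted limma p under 0.05, as did 1417 of the 16667 genes tested. The difference between strains of iNKT17 minus ROR- called 0 by limma, where 0.084% were called. In that test 3 of 7 had an unadjusted limma p under 0.05, as did 669 of the 16667 genes tested.

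Groups this small often do not overlap, and the receptor genes were read against that. For iNKT17 minus ROR- the arrays did not overlap for 4 of the 7 in BALB/c, where 22.2% of all genes did not, and for 7 of 7 in B6, where 46.4% did not. For gamma-delta 17 minus ROR- it was 5 of 7, where it was 48.5% of all genes, and for iNKT17 minus gamma-delta 17 it was 6 of 7, where it was 41% of all genes. For BALB/c minus B6 it was 4 of 7 in iNKT17 cells, where it was 31.7% of all genes, and 5 of 7 in ROR- cells, where it was 26.3%. The median level difference of the 7 was 0.09 in BALB/c and -0.45 in B6 for iNKT17 minus ROR- cells, and -0.41 for gamma-delta 17 minus ROR- cells, beside medians of 0.00, -0.01 and 0.01 over all genes tested.

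Across the 12 arrays, which share group structure, the levels of Pdcd1 and Btla had a Pearson r of -0.81, those of Btla and Tigit of 0.71, and those of Cd28 and Tigit of 0.76. For deviations from the group means the same pairs gave -0.14, 0.19 and 0.69. The chromosomal neighbours Cd28 and Ctla4 had an r of -0.04, and of 0.78 for deviations, and Cd28 and Icos had 0.57 and 0.43. The Cd28 SD was 1.0 in gamma-delta 17 cells and at most 0.16 in the other groups. Its r of deviations therefore rest largely on the gamma-delta 17 arrays, of which replicate 1 stood apart. Like patterns were ranked among the genes tested, leaving out predicted, provisionally named, microRNA and mitochondrial genes and the other receptor genes. Those most like Pdcd1 were Myo1e, a class I myosin (r = 0.99), Nucb2, a calcium-binding protein (0.99), and Kcnmb4, a potassium channel subunit (0.98). Those most like Btla were Chn2, a chimaerin that acts on Rac (0.98), Ifit1bl1 (0.97) and Il4ra, the interleukin 4 receptor chain (0.96). Lrmp (0.98), Cd40lg, the CD40 ligand (0.96), and Cd6, a T cell surface glycoprotein (0.95), were most like Cd28. These r are descriptions over 12 arrays in 5 groups.

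For the other members the closest patterns were looser. They were Eva1a (0.93), Klk7 (0.87) and Cd300a (0.86) for Ctla4, and Tlr7 (0.92), Il5 (0.90) and Zfp318 (0.89) for Icos. For Tigit they were Serpinb6b (0.89), Zc3h6 (0.87) and the type 2 cytokine gene Il13 (0.86), and for Lag3 Defb35 (0.91), Tango6 (0.89) and Rtkn2 (0.89). Over the 12 arrays Eva1a spanned 3.24 to 3.84 and Cd300a 3.31 to 3.82, around the dim level of 3.45. Defb35 spanned 3.47 to 4.28, its lowest level just above it.

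Of 15 tested ligand genes, as the mean of both strains 0 rose and 4 fell in iNKT17 cells, where 6.49% of all genes rose and 5.81% fell. In gamma-delta 17 cells 0 rose and 4 fell, where 2.61% and 3.41% of all genes did. In BALB/c alone 1 rose and 3 fell, where 4.06% and 2.91% of all genes did. The one that rose was Lgals3, which encodes galectin-3 (0.67 ± 0.15, limma adjusted p = 0.0159), a call lost without any of 3 arrays. Pvr, the TIGIT ligand CD155, fell by 1.28 ± 0.11 in iNKT17 cells (limma adjusted p = 8.06e-06) and by 2.05 ± 0.16 in gamma-delta 17 cells (limma adjusted p = 2.10e-05). Icosl, the ICOS ligand, changed by -0.97 ± 0.11 in iNKT17 cells and by -1.58 ± 0.18 in gamma-delta 17 cells (limma adjusted p = 1.25e-04 and 1.98e-04). Cd274, which encodes PD-L1, fell by 0.74 ± 0.15 and Lgals9, a TIM-3 ligand, by 0.71 ± 0.12 in iNKT17 cells (limma adjusted p = 0.00529 and 0.00226). Without gamma-delta 17 replicate 1 the gamma-delta 17 differences were -1.97 for Pvr and -1.60 for Icosl.

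Ligands of CD28 and BTLA, named after their values were seen, did not pass. Cd80 differed by -0.10 ± 0.11 as the mean of both strains (limma adjusted p = 0.649) and Tnfrsf14 by -0.25 ± 0.12 (limma adjusted p = 0.220), while Cd86 had group means between 2.92 and 3.10, below the dim level. The median difference of the 15 was -0.10 as the mean of both strains. Leaving out 1 array at a time kept the lower count of the mean comparison between 4 and 5, and without both arrays that stand apart it was 6.

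Of 23 other costimulatory and inhibitory receptors tested, 2 rose and 11 fell in iNKT17 cells as the mean of both strains, where 6.49% and 5.81% of all genes did. In gamma-delta 17 cells 0 rose and 10 fell, where 2.61% and 3.41% of all genes did. Cd27, a costimulatory receptor of the tumour necrosis factor receptor family, fell by 4.02 ± 0.33 in iNKT17 cells and by 3.23 ± 0.51 in gamma-delta 17 cells (limma adjusted p = 7.53e-06 and 0.00251). The adhesion receptor gene Cd2 changed by -3.07 ± 0.14 in iNKT17 and by -2.08 ± 0.22 in gamma-delta 17 cells (limma adjusted p = 1.07e-07 and 1.40e-04). In gamma-delta 17 cells the Cd27 difference was -4.37 without replicate 1 and -2.08 without replicate 2, and that of Cd2 was -2.41 and -1.74. Cd200r1, an inhibitory receptor, fell by 1.99 ± 0.25 and Entpd1, the ectonucleotidase CD39, fell by 1.98 ± 0.17 (limma adjusted p = 2.13e-04 and 9.51e-06 in iNKT17 cells). The 2 that rose, named after their values were seen, were Crtam (1.44 ± 0.19), which binds nectin-like proteins, and Cd96 (0.66 ± 0.13), which shares the ligand CD155 with TIGIT. The median difference of the 23 was -0.36 in iNKT17 cells and -0.89 in gamma-delta 17 cells. Leaving out 1 array at a time put the count that fell between 9 and 12 in iNKT17 cells and between 7 and 12 in gamma-delta 17 cells, at 10 without gamma-delta 17 replicate 1 and 7 without replicate 2.

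**Figure D3:**
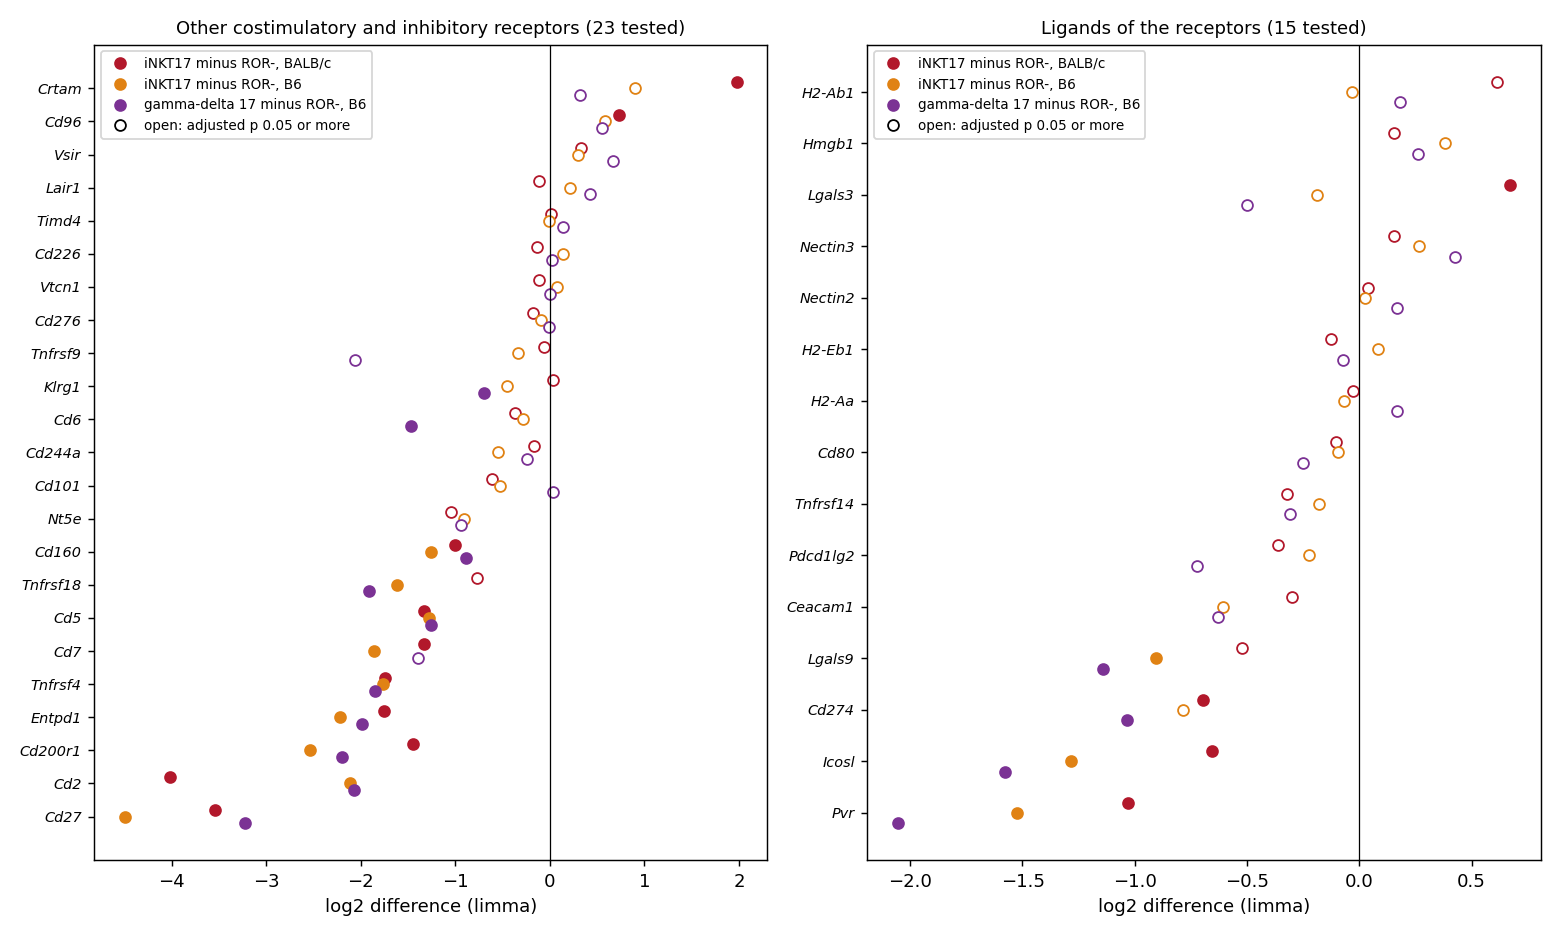
Log2 differences (x axis, limma) of 23 other receptors and 15 ligand genes (y axis, sorted by the mean of both strains) for iNKT17 minus ROR- cells of BALB/c and of B6 and gamma-delta 17 minus ROR- cells of B6, with filled points past an adjusted p of 0.05. Cd27, Cd2, Cd200r1 and Entpd1 were lower in the 3 comparisons, as were the ligands Pvr and Icosl.

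Of 31 downstream signalling genes tested, 3 rose and 5 fell in iNKT17 cells as the mean of both strains, where 6.49% and 5.81% of all genes did, with a median difference of -0.03. Malt1, a scaffold and protease of the NF-κB branch, fell by 1.42 ± 0.08 and Prkcq, the kinase that CD28 engages, by 1.27 ± 0.13 (limma adjusted p = 5.05e-07 and 3.42e-05). Cblb, a ubiquitin ligase that CD28 signals counter, fell by 0.76 ± 0.15, and Ptpn6, the phosphatase SHP-1, by 0.63 ± 0.18 (limma adjusted p = 0.00532 and 0.0358), the Ptpn6 call being lost without any 1 of 8 arrays. The iNKT17 level of Malt1 was higher in BALB/c than in B6 by 1.12 ± 0.12 (limma adjusted p = 4.37e-04), the same direction as Cd28. The count that rose went down to 1 without B6 iNKT17 replicate 1, and to 2 without any of 5 other arrays.

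Of 24 tested transcription factors tied to these receptor genes, 4 rose and 10 fell in iNKT17 cells as the mean of both strains, where 6.49% and 5.81% of all genes did, with a median difference of -0.24. Tbx21, the factor T-bet that represses Pdcd1 in exhausted CD8 T cells, fell by 2.78 ± 0.17 and Maf rose by 1.84 ± 0.26 (limma adjusted p = 8.16e-07 and 5.70e-04). Egr3, a target of T cell receptor signals, fell by 1.71 ± 0.15 and Bach2 by 1.23 ± 0.16 (limma adjusted p = 1.49e-05 and 3.08e-04). Without 1 array the count that rose lay between 2 and 4, at 2 without any of 6 arrays, and the count that fell was 6 without B6 iNKT17 replicate 2.

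Some markers of other T cell states differed between the same groups, and others did not. Cd4 averaged 4.0 in BALB/c iNKT17 cells, with 8.20 in BALB/c ROR- cells, and 3.89 in B6 iNKT17 and 4.05 in gamma-delta 17 cells, against 7.31 in B6 ROR- cells. The summed level of 10 NK and CD8 cell markers lay between 48.98 and 49.77 in BALB/c iNKT17 cells, with 55.1 to 60.1 in BALB/c ROR- cells. In B6 it lay between 51.0 and 52.0 in iNKT17 cells and at 60.5 and 48.7 in gamma-delta 17 cells, against 64.6 and 66.7 in ROR- cells. Relative to ROR- cells, 0 of the 10 rose in any type 17 group. In BALB/c iNKT17 cells 4 fell, where 2.91% of all genes did. In B6 iNKT17 cells 5 fell, where 3.16% did, and in gamma-delta 17 cells 3, where 3.41% did. Both B6 counts include the NK receptor gene Klra9, which averaged above the dim level only in B6 ROR- cells. Gzma and Eomes averaged under 3.45 in the iNKT17 groups of both strains. The CD8 chain genes of that list did not average lower in type 17 than in ROR- cells of B6. Cd8a averaged 6.73 in B6 iNKT17 and 7.11 in gamma-delta 17 cells, against 4.76 in B6 ROR- cells, with limma adjusted p of 0.163 and 0.0792. Gamma-delta 17 replicates 1 and 2 read 8.76 and 5.47 for Cd8a and 8.24 and 4.30 for Cd8b1, split as the sum was. Cd8b1 averaged 6.0 in BALB/c iNKT17 cells, beside 5.29 in BALB/c ROR- cells, and 5.98 in B6 iNKT17 cells, against 5.01 in B6 ROR- cells (limma adjusted p = 0.680 and 0.697). The part of these markers in the receptor differences was not tested. As the mean of both strains, where 12.3% of all genes were called, of 8 T cell and iNKT markers 1 rose and 2 fell in iNKT17 cells, of 6 follicular helper markers 1 rose and 1 fell, and of 4 B cell and 8 myeloid markers 1 rose and 1 fell each. Of 6 thymocyte markers 0 rose and 1 fell.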

How the data were processed

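RNA of 12 mouse samples was hybridised to Affymetrix whole-transcript arrays, as biotinylated cRNA per the labels' protocols. The authors deposited 1 table of log2 values for 41345 probe sets. The R package oligo made them, per the submitters' processing notes. How it corrected background and normalized, and its version, are not given in the sources. Base 2 was assumed for the logarithm, which no source states. Medians of the arrays ran from 4.10 to 4.30, and nothing further was normalized.

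Of the probe sets 23521 had 1 gene symbol in the platform annotation, 1814 had several and 16010 had none given here. Gene IDs matched RefSeq (GRCm38.p6) for 23328, with 0 symbols changed. Testing required a level above the 30th percentile of named values on 2 or more arrays, met by 16667 genes and missed by 5513. A group-means model over the 12 arrays was fitted with limma 3.58.1 (lmFit, eBayes) in R 4.3.3, giving 7 residual and 4.50 prior degrees of freedom. P-values were adjusted by Benjamini-Hochberg over the genes tested, within each comparison, at 0.05. Depth is not a quantity of arrays. The script was tested on simulated data.

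The members, gene lists and tests were chosen with earlier results of these data known. Named beside the 8 receptors were up to 4 called members with the largest differences per list and comparison, the 3 most correlated genes per receptor, and the anchors Zbtb16, Cd3e, Tbx21, Foxp3 and Bcl6, with marker genes. The correlated genes were ranked without predicted, provisionally named, microRNA and mitochondrial genes and without the other receptor genes. Alternatives were the dim filter, median centring, quantile normalization, array weights, trend with robust eBayes, a replicate block, the mean of probe sets, each array left out, and, added after seeing the data, both arrays that stand apart left out.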

Additional observations from a re-analysis of the deposited data

Results flagged for a closer look

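Among the related genes the difference between strains of iNKT17 minus ROR- passed for Cd2, an adhesion receptor of T and NK cells. It was -1.91 ± 0.29 (limma adjusted p = 0.0447), from -4.02 ± 0.18 in BALB/c and -2.11 ± 0.22 in B6. Cd2 averaged 5.44 in BALB/c iNKT17 cells and 7.51 in B6 iNKT17 cells. The call was lost without any of 9 of the 12 arrays, with values between -2.09 and -1.82 and limma adjusted p up to 0.229.

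The same test passed for Klra9, an NK receptor of the Ly49 family, at 3.56 ± 0.41 (limma adjusted p = 0.0134). Klra9 averaged 2.28 in BALB/c iNKT17 cells, beside 2.94 in BALB/c ROR- cells, and in B6 2.69 in iNKT17 and 2.30 in gamma-delta 17 cells, against 6.91 in ROR- cells. All but the B6 ROR- mean lay below the dim level, so Klra9 was tested only because of that group, and the BALB/c side of the contrast holds no level above it. The call was lost without either B6 iNKT17 or either B6 ROR- array, with limma adjusted p between 0.0717 and 0.108.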

How the results depend on the processing

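Each Pdcd1 and Btla call of a type 17 minus ROR- comparison, and the Btla call between ROR- cells of the strains, held under each alternative run, as did the Cd28 and Tigit calls of gamma-delta 17 minus ROR- cells. The Cd28 call of BALB/c minus B6 in iNKT17 cells ended with median centring, quantile normalization and the replicate block (limma adjusted p = 0.0517, 0.0592 and 0.0695). With arrays centred on their medians, iNKT17 minus gamma-delta 17 called 1 receptor gene (Cd28 at 1.95) and BALB/c minus B6 called 0 in iNKT17 and 2 in ROR- cells; quantile normalization gave 0 and 2 for the strain comparisons. With array weights iNKT17 minus gamma-delta 17 called 1 and BALB/c minus B6 in iNKT17 cells 2. Without both arrays that stand apart, chosen after seeing the data, iNKT17 minus gamma-delta 17 called 1.

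Replicate numbers did not pair the samples. Deviations from group means correlated between -0.46 and 0.47 for same-numbered arrays (median -0.01, 21 pairs), with a median of 0.03 over 36 other pairs. With the replicate block BALB/c minus B6 in iNKT17 cells called 0, 3 neighbouring groups differed instead of 5 of the 28 compared over the receptor genes, and Tigit in B6 iNKT17 minus ROR- cells had a limma adjusted p of 0.0547.

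Leaving out 1 array at a time gave 2 to 4 calls for iNKT17 minus ROR- cells of B6, 2 to 4 for the mean of both strains, 0 to 2 for iNKT17 minus gamma-delta 17, 0 to 1 for BALB/c minus B6 in iNKT17 cells and 2 to 6 differing neighbours; the other counts did not move. Differences near 0 changed sign without being called. Icos in BALB/c minus B6 iNKT17 cells was 0.0038, -0.0553 when centred, -0.0129 with quantile normalization, -0.0316 with the block, and -0.0713 to 0.0789 with arrays left out. Lag3 in iNKT17 minus gamma-delta 17 was -0.02, 0.0971 when centred, 0.104 with quantile normalization, 0.0803 without both arrays and -0.12 to 0.0803 with 1 array left out. With 1 array left out the others ranged from -0.042 to 0.16 (Icos) and -0.10 to 0.0638 (Lag3) for the difference between strains of iNKT17 minus ROR-, -0.15 to 0.0458 (Icos, BALB/c minus B6 ROR-), -0.37 to 0.91 (Ctla4, gamma-delta 17 minus ROR-) and -0.14 to 0.0247 (Ctla4, both strains averaged). Without both arrays they were -0.042 (Icos) and 0.0638 (Lag3) for that strain test, 0.0458 (Icos, ROR- cells) and -0.372 (Ctla4, gamma-delta 17 minus ROR-). The cause was not tested. A group of 2 with an array left out holds 1 array, assumed to vary like the other groups. Signal near the dim level limits Ctla4 and Havcr2. It also limits Btla in BALB/c iNKT17 and gamma-delta 17 cells, and Tigit in gamma-delta 17 cells.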

Other observations

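Between the strains 1 of 15 ligand genes passed in iNKT17 cells, where 1.48% of all genes were called, and 1 of 15 in ROR- cells, where 1.22% were called. H2-Ab1, an MHC class II chain and so part of a LAG-3 ligand, was higher in BALB/c than in B6 iNKT17 cells by 1.5 ± 0.31 (limma adjusted p = 0.0376), with means of 7.65 and 6.15. That call was lost without any of 7 arrays. The class II genes H2-Aa and H2-Eb1 of the same list were not higher in BALB/c iNKT17 cells. H2-Aa averaged 3.25 in BALB/c and 3.35 in B6 iNKT17 cells, both below the dim level, and H2-Eb1 averaged 3.83 and 4.003. In ROR- cells H2-Ab1 averaged 7.04 in BALB/c and 6.19 in B6, a difference that did not pass. Whether class II as a whole differed between the strains was not tested. Icosl was lower in BALB/c than in B6 ROR- cells by -0.86 ± 0.16 (limma adjusted p = 0.0255), with means of 5.09 and 5.95, which did not pass without replicate 2 or 3 of BALB/c ROR- or either B6 ROR- array (limma adjusted p up to 0.191). Crtam was higher in BALB/c than in B6 iNKT17 cells by 1.25 ± 0.27 (limma adjusted p = 0.0458), with means of 6.83 and 5.58, and lost its call without any of 7 arrays.

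Between iNKT17 and gamma-delta 17 cells of B6, 2 type 17 cytokine genes passed. Il17a was lower in iNKT17 cells by -3.38 ± 0.47 and Il17f by -2.75 ± 0.39 (limma adjusted p = 0.0180 for each), and both were lost without either B6 iNKT17 array, Il17a also without gamma-delta 17 replicate 2. In the same comparison 0 of 15 ligand genes and 0 of 23 other receptors passed limma's threshold, where 0.168% of all genes were called.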
